A study of Drosophila melanogaster with 21 samples.

Results

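Connectin (Con), capricious (caps), tartan (trn) and the 6 Kekkon genes kek1 to kek6 encode cell-surface proteins whose extracellular part carries leucine-rich repeats. All 9 were found by symbol among the 7076 genes of a bulk RNA-seq table of Drosophila melanogaster L1 neurons, and 74 of the 26121 open-chromatin regions (ATAC-seq peaks) of the same cell type had one of them as nearest gene. They were chosen by name, selected on presence in the RNA table and, for peaks, on the authors' nearest-gene column, so that all 9 were measured is no finding. The rise and fall of Con were known when the group was chosen. L1 neurons are lamina neurons of the visual system that receive photoreceptor input. They were isolated by fluorescence-activated cell sorting from brains of wild-type animals of 3 pupal ages, given as hours after puparium formation: 40 h, 60 h and 72 h. There were 2, 3 and 2 RNA libraries and 2 ATAC libraries at each age. The labels gave neither the driver or reporter behind the sort nor the number of pooled animals, and no treatment. The other 8 of the 21 samples, single-cell libraries of lamina neurons, were not analysed here.

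Leucine-rich repeats form a curved protein surface that binds other proteins, and proteins of this kind are used by neurons to recognise partner cells. Con is a homophilic adhesion protein first studied on motor neurons and muscles. Caps and Trn are closely related transmembrane proteins that take part in boundary formation and in the targeting of axons to layers and columns of the fly visual system. The Kekkon proteins join leucine-rich repeats to an immunoglobulin domain. Kek1 binds the epidermal growth factor (EGF) receptor and inhibits it, Kek5 modulates bone morphogenetic protein (BMP) signalling, and Kek6 is a receptor for a neurotrophin of the Spätzle family at the larval neuromuscular junction.

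RNA levels are in RPKM, a read number divided by gene length and by the size to which the authors scaled the library. That size was 22.1 to 46.1 M reads in the RNA libraries, and 13.8 to 18.3 M in the ATAC libraries. All 5 markers of L1 and neurons (svp, VGlut, ort, elav and nSyb) were at 1 RPKM or more in every RNA library, and their summed level was 661 to 2515 RPKM. The 3 listed markers of other lamina neurons summed to 3.29 to 10.7 RPKM, and the hemocyte marker Hml stayed at 0.454 RPKM or below. Glial markers (8 genes) summed to 23.8 and 39.5 RPKM (40 h), 43.0 to 86.2 (60 h) and 547 and 1665 (72 h), with none at 0 in any library. Photoreceptor markers (12 genes) summed to 40.3 and 128 RPKM (40 h), 306, 578 and 117 (60 h) and 66.5 and 173 (72 h), with 1 of them at 0 in 1 library at 40 h. In a bulk sample fewer cells of a type and less RNA per cell cannot be told apart, so each level below belongs to the sorted pool.

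From 40 h to 60 h the group split in direction. Con, trn, caps, kek1 and kek4 rose, kek6, kek5 and kek2 fell, and kek3 did not pass the test. These were 8 of 9 genes at an adjusted p under 0.05, where 47.7% of the 6939 genes tested passed (25.2% higher and 22.5% lower). One of the 8, kek5, passed the filter on low values only through the 40 h libraries, where it was high, so its call adds nothing to that share. Changes are differences in log2(RPKM + 1), a scale that understates the change of low genes, from 1 limma fit over all 7 libraries with Benjamini-Hochberg adjustment over all genes. The median change of the 9 genes was 0.71, against -0.0023 for all genes tested, and the median size without regard to sign was 1.29 against 0.485.

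**Figure D1:**
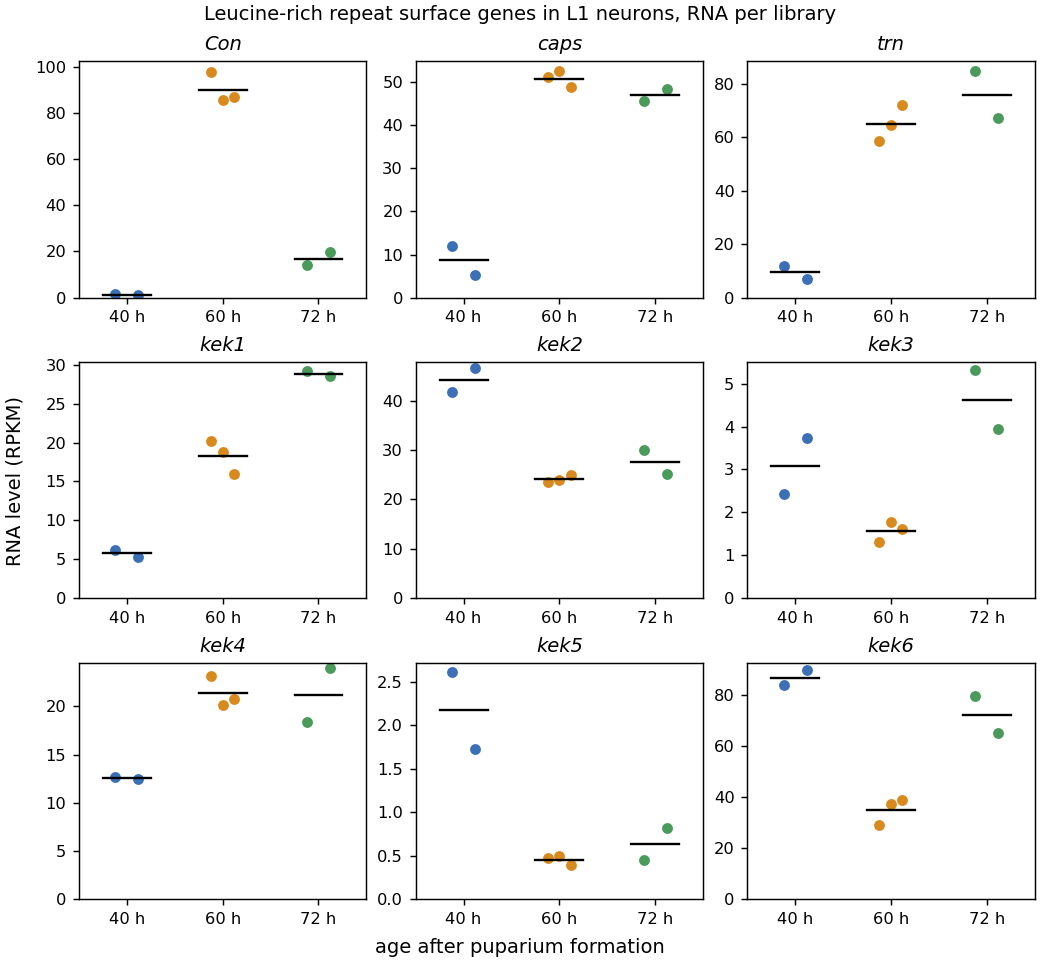
RNA level in RPKM (vertical axis, a separate scale for each gene) of the 9 genes in each library (points) at 40 h, 60 h and 72 h, with the mean of each age as a bar. Con peaked at 60 h, caps and trn stayed high at 72 h, and kek6 was lowest at 60 h.

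Con had the largest change. It stood at 1.44 and 1.09 RPKM in the 40 h libraries, at 97.7, 85.7 and 87.2 RPKM at 60 h, and at 14.2 and 19.6 RPKM at 72 h. The 3 ages did not overlap, and 60 h was the high one in every library. The rise to 60 h was 5.34 ± 0.17 on the log2 scale (SE, limma adjusted p = 5.7e-09), rank 12 of the 6939 genes tested, and came to 71.4 times the 40 h mean. The fall from 60 h to 72 h was -2.37 ± 0.17 (adjusted p = 7.2e-06), rank 53 among falling genes, and left the mean at 13.4 times that of 40 h. The 40 h values rested on 395 and 297 recovered reads and the 60 h values on 11264 to 16537. In the 60 h library with 117 RPKM of summed photoreceptor markers Con was at 87.2 RPKM. In those with 306 and 578 RPKM it was at 97.7 and 85.7 RPKM. The part of photoreceptor RNA in these levels was not tested.

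The related genes caps and trn rose and then held their level. caps was at 12.1 and 5.29 RPKM at 40 h, at 51.1, 52.6 and 48.9 RPKM at 60 h, and at 45.6 and 48.5 RPKM at 72 h. trn was at 11.7 and 7.05 RPKM at 40 h, at 58.7, 64.6 and 72.1 RPKM at 60 h, and at 84.6 and 67.4 RPKM at 72 h. For both genes every 40 h library lay below every later one, and the 40 h replicate 1 was the higher of its pair in both. The rises to 60 h were 2.51 ± 0.24 for caps and 2.70 ± 0.19 for trn (limma adjusted p = 1.2e-05 and 1.1e-06). Neither gene passed the test between 60 h and 72 h (-0.11 ± 0.24 for caps, 0.22 ± 0.19 for trn, limma adjusted p = 0.77 and 0.44). Over the 7 libraries, which form only 3 ages, caps and trn had a Pearson correlation of 0.981 in log2(RPKM + 1). It was the highest of any pair among the 9 genes, but 31 genes exceeded 0.98 with caps and 128 with trn.

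Of the Kekkon genes, kek1, the EGF receptor inhibitor, rose step by step. It was at 6.25 and 5.29 RPKM at 40 h, at 20.2, 18.8 and 16.0 RPKM at 60 h, and at 29.2 and 28.5 RPKM at 72 h. The ages did not overlap. The first step was 1.51 ± 0.17 (limma adjusted p = 3.2e-05) and the second 0.63 ± 0.17 (adjusted p = 0.015). The second call was lost without replicate 3 of 60 h (adjusted p = 0.055), without either 72 h library (0.086 and 0.061) and without both 60 h libraries rich in photoreceptor markers (0.069), where the change itself was 0.81.

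kek4 rose less and early. It was at 12.7 and 12.5 RPKM at 40 h, at 23.2, 20.1 and 20.8 RPKM at 60 h, and at 18.3 and 24.0 RPKM at 72 h. The 40 h libraries were the lowest, and the later ages overlapped. The change was 0.71 ± 0.16 at 60 h and 0.69 ± 0.18 at 72 h against 40 h (limma adjusted p = 0.0044 and 0.0065). The call at 60 h was lost without both 60 h libraries rich in photoreceptor markers (0.68, adjusted p = 0.075), and that at 72 h without replicate 2 of 72 h (0.0603).

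kek6, the neurotrophin receptor gene, dipped at 60 h. It was at 83.8 and 89.6 RPKM at 40 h, at 29.1, 37.3 and 38.7 RPKM at 60 h, and at 79.5 and 65.0 RPKM at 72 h. The 60 h libraries were the lowest, and the 72 h libraries lay below both 40 h ones. It fell by 1.29 ± 0.15 to 60 h and then rose by 1.03 ± 0.15 (limma adjusted p = 3.7e-05 and 4.2e-04). Between 40 h and 72 h the change was -0.27 ± 0.16 and did not pass (adjusted p = 0.18), and it passed under quantile normalization (-0.50, adjusted p = 0.019).

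kek2 and kek5 fell from 40 h. kek2 was at 41.8 and 46.7 RPKM at 40 h, at 23.6, 23.9 and 24.9 RPKM at 60 h, and at 30.0 and 25.1 RPKM at 72 h. Its 40 h libraries were the highest, with a change of -0.85 ± 0.13 to 60 h and of -0.67 ± 0.15 to 72 h (limma adjusted p = 3.9e-04 and 0.0024). kek5, the BMP modulator, was at 2.61 and 1.73 RPKM at 40 h, at 0.476, 0.501 and 0.390 RPKM at 60 h, and at 0.450 and 0.820 RPKM at 72 h. It reached 1 RPKM only in the 40 h libraries and passed the filter on low values through them, so a difference was built into its being tested. Its change was -1.11 ± 0.29 to 60 h and -0.95 ± 0.32 to 72 h (limma adjusted p = 0.0090 and 0.024). Both calls were lost without replicate 1 of 40 h (adjusted p = 0.068 and 0.12) and without both 60 h libraries rich in photoreceptor markers (0.11 and 0.074, with changes of -1.18 and -0.95), and the second also without replicate 1 of 72 h (0.10) and with a pseudocount of 0.1 (0.052). The later values rested on 61 to 133 recovered reads, against 773 and 511 at 40 h.

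kek3 was low throughout. It was at 2.42 and 3.72 RPKM at 40 h, at 1.31, 1.77 and 1.62 RPKM at 60 h, and at 5.30 and 3.94 RPKM at 72 h. The 3 ages did not overlap, and 60 h was the low one. The change to 60 h was -0.65 ± 0.27 (limma adjusted p = 0.068), a value that passed without the variance trend (0.028). The rise from 60 h to 72 h was 1.13 ± 0.27 (adjusted p = 0.0084) and was lost without replicate 1 of 72 h (0.074) and without both 60 h libraries rich in photoreceptor markers (0.12, with a change of 1.09).

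Between 60 h and 72 h, 3 of the 9 genes rose (kek1, kek3 and kek6) and 1 fell (Con), where 33.0% of all genes tested passed, 16.6% higher and 16.4% lower. Between 40 h and 72 h, 5 rose (Con, trn, caps, kek1 and kek4) and 2 fell (kek2 and kek5), where 59.3% of all genes passed. The comparisons share libraries and are not independent of each other. For the later interval the median size of change of the 9 genes, 0.216, was below that of all genes, 0.339. The summed glial markers rose from 43.0 to 86.2 RPKM at 60 h to 547 and 1665 RPKM at 72 h, in the same interval as kek1, kek3 and kek6. All 3 of these genes were higher in the 72 h library with the smaller glial sum (29.2, 5.30 and 79.5 RPKM) than in the other (28.5, 3.94 and 65.0 RPKM). The part of glial RNA in these changes was not tested.

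**Figure D2:**
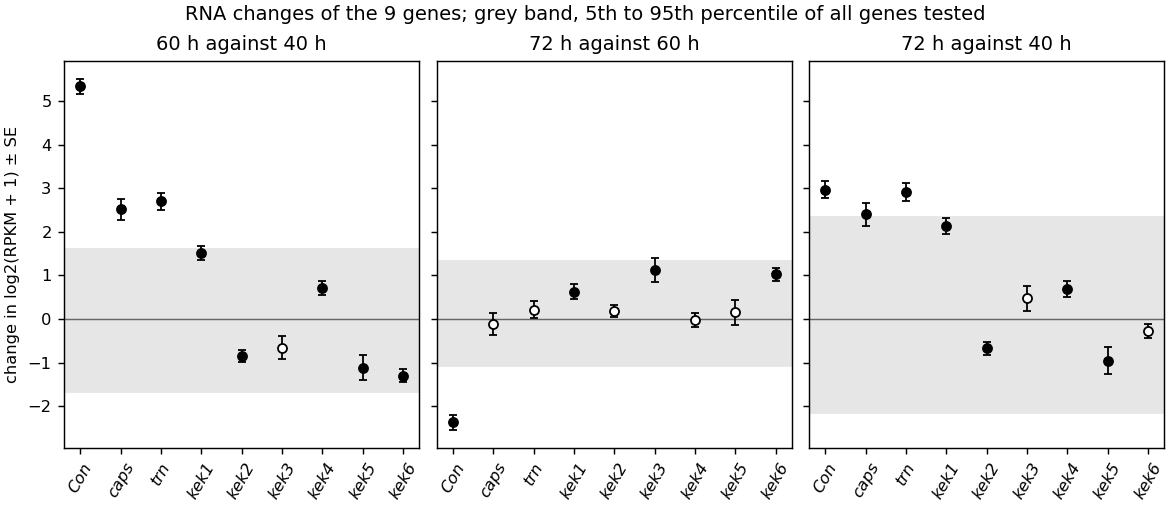
Change in log2(RPKM + 1) with its SE (vertical axis) for the 9 genes in the 3 comparisons between ages; filled points passed an adjusted p under 0.05 and open points did not, and the grey band runs from the 5th to the 95th percentile of all genes tested. Con, caps and trn lay above the band from 40 h to 60 h, and Con lay below it from 60 h to 72 h.

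The order of levels within the group turned over with age. At 40 h kek6 (mean 86.7 RPKM) and kek2 (44.2 RPKM) stood above kek4 (12.6 RPKM), followed by trn, caps and kek1, whose neighbouring ranges overlapped, then kek3 and kek5, which overlapped, and Con was lowest (1.26 RPKM). At 60 h Con was highest (90.2 ± 6.5 RPKM, SD, n = 3), then trn (65.1 ± 6.7), caps (50.9 ± 1.9) and kek6 (35.0 ± 5.2), each above the next in every library. Below them kek2 (24.1 RPKM) stood above kek4 and kek1, which overlapped, and kek3 and kek5 were lowest. At 72 h trn and kek6 overlapped at the top (76.0 and 72.2 RPKM), caps followed (47.0 RPKM), kek1 overlapped with kek2 and kek4 with Con, and kek3 and kek5 were again lowest. On the scale of the whole table, Con moved from a level above 6.98% of the genes at 40 h to one above 86.9% at 60 h and 51.2% at 72 h.

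The genes whose course over the 7 libraries was most like a member's were found by Pearson correlation of log2(RPKM + 1) among all genes tested, as a description: with 3 ages, a high value says little more than a like order and spacing of the age means. Nearest to Con were CG1764 (r = 0.999), tok, which encodes a Tolloid-related metalloprotease (0.998), and gammaTub23C, a gamma-tubulin gene (0.997). The mean level of tok was 30.6, 214 and 94.0 RPKM at the 3 ages, so that like Con it was highest at 60 h. Rift was nearest to caps (0.997) and MICAL-like to trn (0.997). Nearest to kek1 was UBL3 (0.998), and second was SdhC, a subunit of succinate dehydrogenase (0.997). The rest of the 3 nearest were CG31717 and Cerk for caps (0.995 and 0.994), Usp30 and aux for trn (0.997 and 0.996) and Ndfip for kek1 (0.997).

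Among genes like the falling members, Hr4, a nuclear receptor gene of the ecdysone response, was second nearest to kek2 (r = 0.986) after CG6024 (0.994). It fell from a mean of 265 RPKM at 40 h to 14.1 at 60 h and 31.6 at 72 h. NT1, which encodes a neurotrophin, was nearest to kek5 (0.995), with 2.81, 0.0581 and 0.360 RPKM. Both kek5 and NT1 passed the filter only through the 40 h libraries, so their likeness was in part built in. CG31324 (0.989) and Fas1, an adhesion protein gene (0.983), were nearest to kek6, Hey, a Notch-regulated transcription factor gene (0.983), to kek3, and mRpL12, a mitochondrial ribosomal protein gene (0.987), to kek4. The rest of the 3 nearest were CG9650 for kek2 (0.9855), Cpr49Ac and CG16786 for kek5 (0.993 and 0.9896), glec for kek6 (0.9797), Keap1 and Gs1l for kek3 (0.974 and 0.967) and hppy and Sil1 for kek4 (0.984 and 0.982). Cpr49Ac and CG16786 had means of 0.237 RPKM or below at 60 h and 72 h, so their likeness to kek5 was in part built in too. The number of genes over 0.98 ran from 1 for kek3 to 212 for kek1, with 2 for kek6.

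Other surface and secreted proteins with extracellular leucine-rich repeats moved in both directions. Of 14 tested, 1 rose and 6 fell from 40 h to 60 h, where 25.2% of all genes rose and 22.5% fell. From 40 h to 72 h, 4 rose and 6 fell, where 30.2% of all genes rose and 29.1% fell. The medians of the list were -0.36 and -0.34. Among the falls to 60 h, Fili, conv and 2mit reached 1 RPKM only in the 40 h libraries. Gp150 did so beside them only in replicate 2 of 72 h (2.995 RPKM). All of these passed the filter through the 40 h libraries, so a difference was built in, and nothing is read from the counts or medians. Fili, 2mit and Gp150 were also among the falls to 72 h. In the second comparison the 2 largest rises were those of Lapsyn (2.50) and hfw (1.25), and the 2 largest falls those of the Toll receptor gene 18w (-3.59) and of Pxn, the matrix peroxidase peroxidasin (-2.92). Lapsyn was at 4.71 RPKM in the 72 h library with 547 RPKM of summed glial markers and at 13.7 RPKM in that with 1665 RPKM, and hfw was at 2.16 and 3.41 RPKM. The part of glial RNA in these rises was not tested.

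In the pathway that Kek1 acts on, more of the listed genes fell than rose. Of 23 tested EGF receptor pathway genes, 2 rose and 9 fell from 40 h to 60 h, where 25.2% of all genes rose and 22.5% fell. From 40 h to 72 h 5 rose and 13 fell, where 30.2% of all genes rose and 29.1% fell (median of the list -0.85). The list holds inhibitors of the pathway as well, so no direction of the pathway is read from these counts. The receptor gene Egfr itself was at 1.04 and 0.726 RPKM at 40 h, at 0.167, 0.189 and 0.136 RPKM at 60 h, and at 0.143 and 0.359 RPKM at 72 h. It was below the filter and left out of the fit, and it was highest at 40 h, the age at which kek1 was lowest. From 40 h to 72 h aop, an ETS repressor of the pathway, fell by 4.54, and aos, a secreted inhibitor of the receptor, fell by 4.42. aos reached 1 RPKM only in the 40 h libraries and passed the filter through them. A difference was thus built in, and its calls add nothing to the counts of falls. rho, the protease that releases the ligand Spitz, rose by 4.05, and the kinase gene Raf rose by 1.64. rho too was higher in the 72 h library with more glial marker RNA (34.5 and 59.4 RPKM), a relation that was not tested.

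For the other pathways the counts were smaller. Of 10 BMP pathway genes, which Kek5 is known to touch, 2 rose and 5 fell from 40 h to 72 h, where 30.2% of all genes rose and 29.1% fell. The receptor genes tkv (0.77) and put (0.30) rose, and the largest falls were those of the co-Smad gene Med (-1.33) and of brk, a repressor of BMP targets (-1.33). Of 7 neurotrophin and Toll receptor pathway genes, 3 rose and 3 fell in the same comparison, with the same shares of all genes. CaMKII (1.62) and Vap33 (0.83), whose products are linked to Kek6 signalling, rose, and 18w fell. NT1 was also lower (-1.49), but it reached 1 RPKM only in the 40 h libraries and passed the filter through them, so that a difference was built in. Toll-7, a neurotrophin receptor gene, dipped at 60 h as kek6 did, at 7.89 and 9.40 RPKM at 40 h, 1.35, 2.25 and 1.95 RPKM at 60 h, and 13.96 and 14.7 RPKM at 72 h. It fell by 1.77 and then rose by 2.44, and its 3 ages did not overlap. Unlike kek6, it ended above its 40 h level (0.67 ± 0.25, limma adjusted p = 0.040). Toll-6 was at 1.085 RPKM or below in every library and was left out of the fit.

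The 74 open-chromatin peaks were spread unevenly over the genes. Con had 20, kek6 15, kek2 14, kek5 9, kek1 6, kek3 5, caps and trn 2 each, and kek4 1, where the median over the 8580 genes with a peak was 1. Peaks were 200 to 1888 bases wide (median 465). They made up 59 separate regions, since 28 of them lay within 100 bases of another, so neighbouring peaks are not independent. A peak's level is RPKM over its width, and its position is given as deposited, with a genome build not given in the sources used here. Distances are the authors' distances to a transcription start of the gene, which for some peaks of Con was not the nearer of its 2 starts. That a peak is nearest to a gene does not show that it acts on it. For each gene the peak nearest its start and the peak with the largest change from 40 h to 72 h are given. The 4 others described by position, 1 each of Con, kek1, kek2 and kek6, were chosen after their values were seen. The ATAC libraries of 1 age correlated at 0.968, 0.842 and 0.861 across all peaks at 40 h, 60 h and 72 h, and the largest difference between the libraries of an age for a member peak was 1.14 on the log2 scale, at 60 h.

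**Figure D3:**
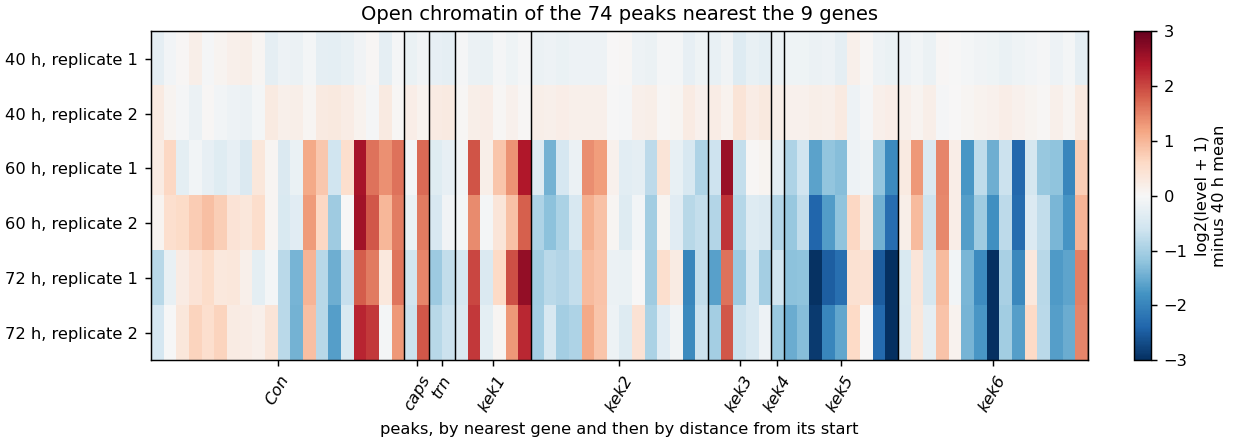
Change of each of the 74 peaks (columns, ordered by gene and then by distance from its start) in each of the 6 ATAC libraries (rows), as log2(level + 1) minus the mean of the 40 h libraries, from blue (lower) to red (higher). Several peaks away from the starts of Con and kek1 turned red after 40 h, while most peaks of kek5 and kek6 turned blue.

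Of the 68 member peaks that passed the filter on low levels, 15 were higher and 21 lower at 60 h than at 40 h (limma, adjusted p under 0.05), where 26.7% of all 23508 peaks tested passed, 10.7% higher and 16.0% lower. Between 60 h and 72 h none was higher and 8 were lower, where 5.11% of all peaks passed, 0.723% higher and 4.39% lower. Between 40 h and 72 h, 12 were higher and 33 lower, where 55.4% of all peaks passed, 26.0% higher and 29.4% lower. Without replicate 2 of 40 h the count from 40 h to 60 h was 14 higher and 9 lower. That library was the higher of its pair in 62 of the 74 member peaks.

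Of the 59 tested member peaks away from a start, 15 were higher and 20 lower at 60 h than at 40 h, where 13.2% and 18.5% of all such peaks were, and 12 were higher and 27 lower at 72 h than at 40 h, where 33.1% and 28.1% were. All 8 calls between 60 h and 72 h were of peaks not at distance 0, where 0.923% of them were higher and 4.81% lower. Among these 8 was a peak of Con 32 bases from a start peak of that gene (-1.13 ± 0.20, limma adjusted p = 0.015).

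Of the 9 peaks at distance 0, 1 was called from 40 h to 60 h, the lower one of kek3, where 8.55% of all distance-0 peaks were lower and 3.51% higher. From 60 h to 72 h none was called, where 3.18% were lower and 0.148% higher, and from 40 h to 72 h none was higher and 6 were lower, where 32.9% of all distance-0 peaks were lower and 5.47% higher. All 9 had a lower mean at 72 h than at 60 h. The share over all distance-0 peaks was not taken, and their median change was -0.209, so nothing is read from this count. Under quantile normalization the count from 40 h to 72 h became 2 lower. Of all 6068 distance-0 peaks, 870 were then lower, against 1999 as deposited, and 707 higher. The count from 40 h to 60 h became 4 higher, where 360 of all distance-0 peaks were higher and 263 lower. The start peaks of Con (3L:4975819-4976528), caps, kek1 and kek6 changed sign from 40 h to 72 h (0.15, 0.08, 0.27 and 0.05). The direction of these 4 peaks thus depended on the scaling of the libraries.

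Con had 2 peaks at distance 0, at 3L:5078753-5079426 and at 3L:4975819-4976528, that is at 2 annotated starts. At the first the level was 44.8 and 49.7 (40 h), 73.1 and 67.9 (60 h) and 40.5 and 47.0 (72 h). The 60 h libraries were higher than all others, as they were for its RNA, but neither step passed (0.57 ± 0.20 and -0.68 ± 0.20, limma adjusted p = 0.062 and 0.079). The second start peak was higher, at 138 and 204 (40 h), 200 and 177 (60 h) and 94.5 and 117 (72 h), and the change from 40 h to 72 h was -0.67 ± 0.22 (adjusted p = 0.025; adjusted p = 0.17 without replicate 2 of 40 h and without replicate 1 of 72 h).

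Of the 16 tested peaks of Con, 5 rose and 1 fell from 40 h to 60 h, where 10.7% of all peaks rose and 16.0% fell. At 72 h 3 were higher and 5 lower than at 40 h, where 26.0% and 29.4% of all peaks were. The later counts lay near those shares, so nothing about Con is read from them. The 9 peaks of Con that the authors placed more than 100 kb from a start, a bound set after their values were seen, were counted from the first start. They lay from 32 bases to 34.4 kb from the second start peak. Of the 8 that passed the filter, 5 rose and 1 fell from 40 h to 60 h, and 3 fell from 60 h to 72 h. Between 40 h and 72 h, 3 of them were higher and 3 lower. As the bound was set on the values, nothing is read from these counts. The largest change was at 3L:4952475-4952961, 22.9 kb from the second start peak, with 9.52 and 11.2 (40 h), 62.2 and 64.0 (60 h) and 38.8 and 54.7 (72 h). It was lowest in both 40 h libraries, rose by 2.50 ± 0.26 to 60 h (limma adjusted p = 3.4e-05), and was called in every alternative tried. Unlike the RNA, it did not pass between 60 h and 72 h (-0.45 ± 0.26, adjusted p = 0.31). A peak at 3L:4959863-4961005, with 50.9 and 74.2 (40 h), 107.6 and 95.2 (60 h) and 33.96 and 33.98 (72 h), rose to 60 h and fell to 72 h (0.71 ± 0.23 and -1.55 ± 0.23, adjusted p = 0.036 and 0.0092). Unlike the RNA, it ended below its 40 h level (-0.84 ± 0.23, adjusted p = 0.0089). Its rise was lost without replicate 1 of 40 h and without replicate 1 of 60 h (adjusted p = 0.20 and 0.0599). None of the 6 tested peaks 20 to 100 kb from the first start passed from 40 h to 60 h, where 26.7% of all peaks did. This range shares the bound of 100 kb that was set after the values were seen, so nothing is read from its count.

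**Figure D4:**
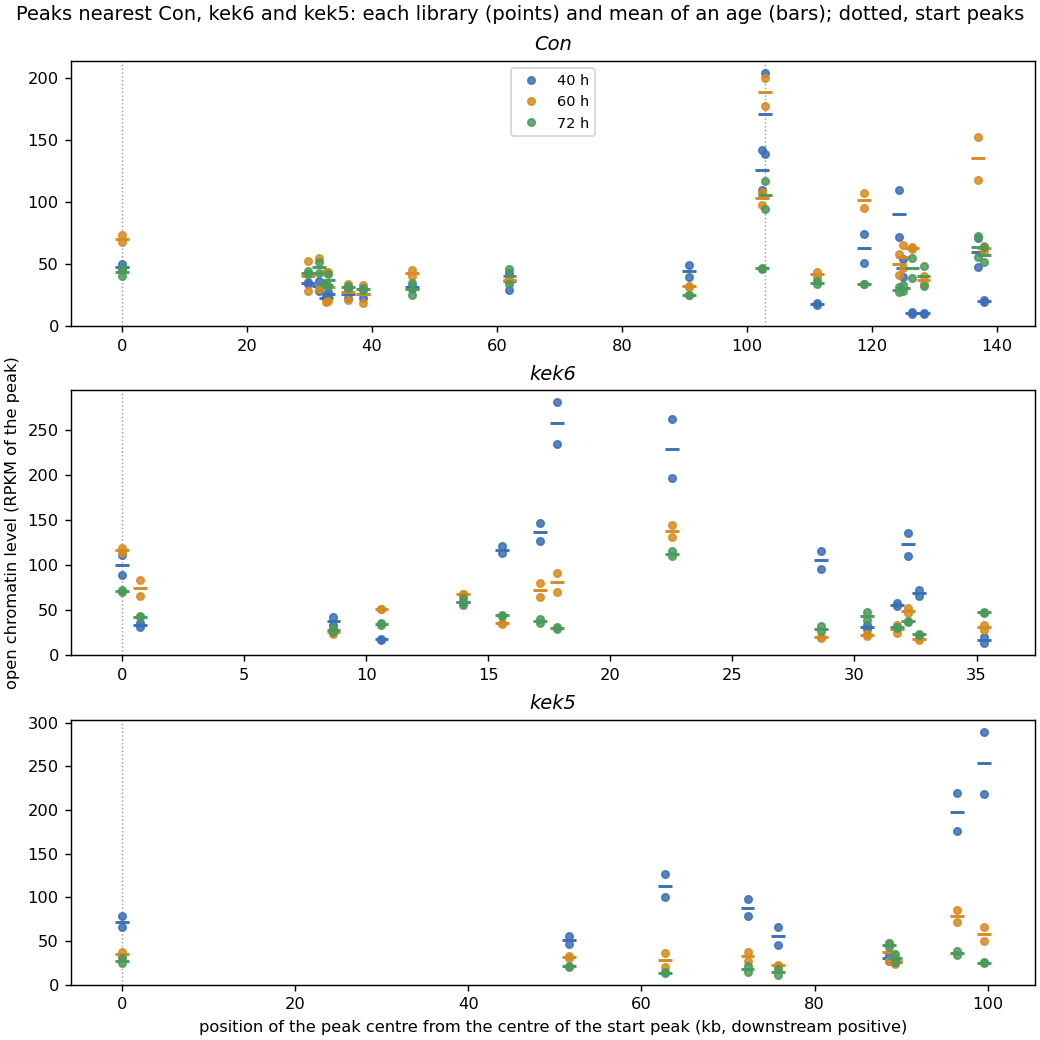
Level of each peak nearest Con, kek6 and kek5 (vertical axis, RPKM of the peak) in both libraries of an age (points) with their mean (bars), against the position of its centre from the centre of the start peak in kb; dotted lines mark the start peaks. The mean level was highest at 40 h in 3 of the 20 peaks of Con, 9 of the 15 of kek6 and 7 of the 9 of kek5, and in 36 of all 74 member peaks. The share over all peaks was not taken, so nothing is read from these counts.

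caps and trn had few peaks. The start peak of caps (3L:13227268-13229096) was at 116 and 153 (40 h), 128 and 117 (60 h) and 88.6 and 85.1 (72 h). Its other peak (3L:13271394-13271709), 42.7 kb from the start, was at 11.0 and 12.9 (40 h), 41.3 and 37.2 (60 h) and 34.9 and 46.2 (72 h). It was lowest at 40 h, as the RNA was, and rose by 1.63 ± 0.27 to 60 h, with 1.67 ± 0.27 at 72 h against 40 h (limma adjusted p = 7.5e-04 and 4.3e-04). Both peaks of trn lay at its start. The one at 3L:13114121-13114490 was at 111 and 163 (40 h), 113 and 126 (60 h) and 80.9 and 85.2 (72 h), and its change from 40 h to 72 h, -0.69 ± 0.22 (adjusted p = 0.018), was lost without any 1 of 3 libraries (replicate 2 of 40 h and either of 72 h, adjusted p = 0.13, 0.082 and 0.0674) and under quantile normalization (adjusted p = 0.99). Its other peak (3L:13113554-13114080), at a distance of -191 bases, was at 112 and 157 (40 h), 103 and 95.3 (60 h) and 61.5 and 73.7 (72 h). The 72 h libraries were the lowest, with a change from 40 h of -0.97 ± 0.21 (adjusted p = 0.0030) that was lost under quantile normalization (-0.39, adjusted p = 0.067). No peak nearest trn was higher at a later age than at 40 h.

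Of the 6 peaks of kek1, 3 rose from 40 h to 72 h and 3 did not pass, where 26.0% of all peaks rose and 29.4% fell. The 3 that rose lay on both sides of its start. The one at 2L:12816585-12817078, 5.71 kb downstream, was at 10.2 and 10.7 (40 h), 59.3 and 38.4 (60 h) and 70.1 and 53.8 (72 h). Its neighbour 2 bases away rose too, and the peak at 2L:12827742-12828133, at a distance of -4.96 kb and so upstream, was at 9.60 and 12.7 (40 h), 43.7 and 31.5 (60 h) and 47.5 and 51.1 (72 h). Both named peaks were lowest in the 40 h libraries, with no overlap, and rose by 2.45 ± 0.28 and 2.06 ± 0.28 from 40 h to 72 h (limma adjusted p = 3.6e-05 and 1.2e-04), calls that held under every alternative. The start peak (2L:12822351-12823175), at 95.8 and 127 (40 h), 124 and 105 (60 h) and 81.4 and 89.4 (72 h), did not pass in any comparison, nor did the peaks at distances of 446 bases and -7.93 kb.

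Of the 15 peaks of kek6, all tested, 3 were higher and 8 lower at 60 h than at 40 h, where 10.7% and 16.0% of all peaks were, and 2 were higher and 8 lower at 72 h than at 40 h, where 26.0% and 29.4% were. All of the lower ones lay 15 to 34 kb from the start, a range of 9 peaks whose bounds were set after the values were seen, so nothing is read from its share. The start peak (3R:31621587-31622763) was at 89.6 and 111 (40 h), 119 and 113 (60 h) and 72.2 and 70.8 (72 h), and neither 60 h (0.22 ± 0.19) nor 72 h (-0.47 ± 0.19) passed against 40 h (limma adjusted p = 0.42 and 0.055). The peak at 3R:31639415-31640572 was at 235 and 280 (40 h), 91.9 and 70.5 (60 h) and 31.7 and 29.5 (72 h). It fell at both steps (-1.66 ± 0.21 and -1.37 ± 0.21, limma adjusted p = 1.1e-04 and 0.010), with no overlap between ages, while the RNA returned from 35.0 to 72.2 RPKM in the second step. None of the 15 peaks of kek6 passed as higher from 60 h to 72 h. A peak at 3R:31652465-31652940, which came nearest to doing so, was at 29.3 and 33.5 (40 h), 21.3 and 23.5 (60 h) and 39.1 and 48.3 (72 h), with a change of 0.93 ± 0.24 (adjusted p = 0.052). It was lowest at 60 h in both libraries, like the RNA.

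Of the 8 tested peaks of kek5, 6 fell from 40 h to 60 h, where 16.0% of all peaks fell and 10.7% rose. From 40 h to 72 h 7 of them fell, where 29.4% of all peaks fell and 26.0% rose. None of the 8 rose in either comparison. The one nearest its start (X:19353212-19353498, 31 bases away) was at 65.8 and 78.4 (40 h), 37.4 and 31.9 (60 h) and 30.1 and 24.8 (72 h). The other 7 lay more than 50 kb from the start. The largest change, at X:19452274-19453566, went from 219 and 289 at 40 h to 66.2 and 50.4 at 60 h and to 25.9 and 24.6 at 72 h. It had the largest change of any member peak, -3.27 ± 0.22 from 40 h to 72 h (limma adjusted p = 3.8e-06), rank 122 among falling peaks, and a 40 h mean 10.1 times that of 72 h.

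The peaks of kek2 and kek3 moved in both directions. The start peak of kek2 (2L:11580870-11582446) was at 111 and 141 (40 h), 95.1 and 65.8 (60 h) and 59.7 and 61.3 (72 h), and it fell by 1.04 ± 0.23 from 40 h to 72 h (limma adjusted p = 0.0028). Farther out, 2L:11621162-11621884, 39.2 kb from the start, was at 159 and 225 (40 h), 134 and 106 (60 h) and 47.6 and 49.2 (72 h), and fell by 1.94 ± 0.22 from 40 h to 72 h. Its peak at 2L:11602065-11602836 was at 23.0 and 28.7 (40 h), 69.5 and 55.0 (60 h) and 51.0 and 57.7 (72 h), and rose by 1.23 ± 0.23 to 60 h while the RNA fell. Of the 13 tested peaks of kek2, 7 fell and 2 rose from 40 h to 72 h, where 29.4% of all peaks fell and 26.0% rose. For kek3, 2L:15555581-15555960, 2.86 kb from the start, was at 9.19 and 10.8 (40 h), 64.4 and 48.5 (60 h) and 32.8 and 38.8 (72 h). It rose by 2.38 ± 0.27 to 60 h (limma adjusted p = 6.3e-05), the age at which the RNA was lowest, and its start peak (2L:15552320-15552868), at 96.8 and 131 (40 h), 73.0 and 60.8 (60 h) and 35.9 and 54.7 (72 h), fell by 1.32 ± 0.25 from 40 h to 72 h. The single peak of kek4, at its start (2L:13214772-13215306), was at 76.4 and 97.4 (40 h), 69.1 and 46.7 (60 h) and 56.9 and 39.2 (72 h). It fell by 0.85 ± 0.26 from 40 h to 72 h (adjusted p = 0.017), a call lost without replicate 2 of either age (0.18 and 0.14) and under quantile normalization (0.15), while the RNA rose.

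**Figure D5:**
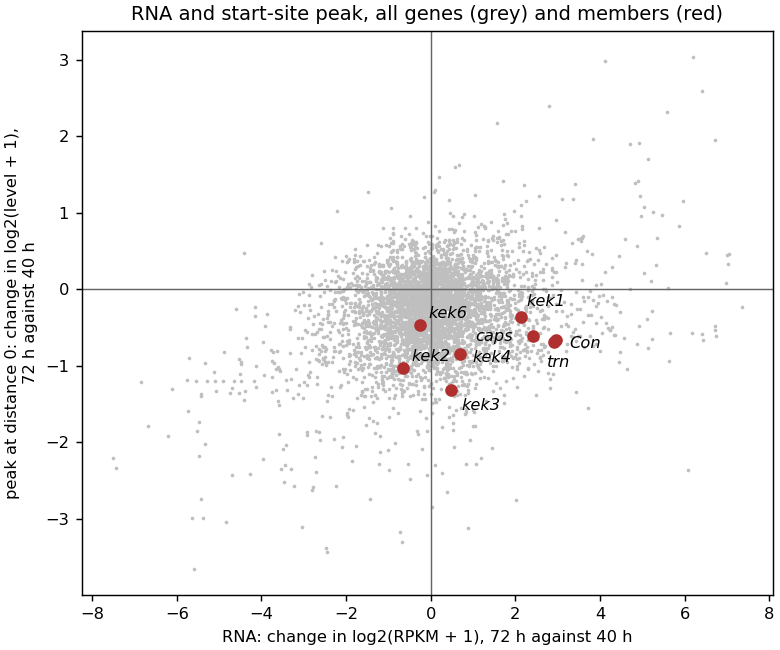
Change from 40 h to 72 h in RNA (horizontal axis, log2(RPKM + 1)) and in the highest peak at distance 0 (vertical axis, log2(level + 1)) for the 4525 genes with both (grey) and for the 8 member genes with such a peak (red). Con, trn, caps and kek1 lay at 2.14 to 2.97 on the RNA axis with start peaks at -0.36 to -0.69, of which those of Con, caps and kek1 turned positive under quantile normalization.

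Set side by side as deposited, RNA and start peak went apart for Con, trn, caps and kek4, but this depended on the scaling. The RNA of these 4 genes rose from 40 h to 72 h and their start peak was lower, while that of kek1 did not pass. For Con this was the higher of its 2 start peaks, and the other did not pass (-0.11 ± 0.20, limma adjusted p = 0.65). Under quantile normalization the start peaks of Con, caps and kek1 changed sign. None of the 4 lower calls of Con, trn, caps and kek4 was kept under it. A lower start peak with higher RNA was no property of the group alone. Of the 1411 genes with RNA higher at 72 h and a peak at distance 0, 25.2% had a lower start peak. A higher one was found in 7.65%. Away from the starts the peaks of Con, kek2, kek3 and kek6 were called in both directions from 40 h to 72 h, and the RNA of kek3 and kek6 did not pass. The called peaks of caps and kek1 (1 and 3) were higher and those of kek5 lower, in the direction of the RNA. For kek5 the RNA difference was built in by the filter. trn and kek4 had no peak beyond the start region. RNA and ATAC libraries were separate preparations, and no value here ties a peak to the transcription of its nearest gene.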

How the data were processed

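RNA libraries followed SMART-seq2 and ATAC libraries a modified published protocol, per the labels. The submitters' processing notes name Bowtie2 2.2.9, MACS2 2.1.1, bedtools and edgeR 3.26.8 but do not say which step each served. The RNA table was deposited in RPKM, per the file headers. The ATAC table carried no unit: multiplied by peak width, 100% of the values were whole numbers of a fixed step, so its deposited values were read as RPKM of each peak, and the planned test was chosen for that unit. Peaks had been called on merged libraries, per the peak names, with the nearest gene and distance given by the authors. The aligner settings, the filter behind the 7076 genes and the handling of strand and shared reads were not given in the sources used here.

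The levels were taken as log2(value + 1). Genes with at least 1 RPKM in at least 2 libraries (6939) and all but the 10% of peaks with the lowest mean level (23508 kept) were fitted with limma 3.58.1 in R 4.3.3, 1 fit per assay over the 3 ages, with trended moderation and no block; the step was tested on simulated data. Tests were two-sided, with Benjamini-Hochberg adjustment over all genes or peaks and a threshold of 0.05. Nothing in the labels says that replicates came from separate animals or sorts, so a p-value reflects only how far these libraries scatter, which may be technical. Chi-square per degree of freedom of reads between libraries of 1 age was 12.8 to 128, so none was a repeat of another. Named were all 9 genes, for each the peak nearest its start and the peak with the largest change from 40 h to 72 h, the 3 genes most like it by correlation, and at most 2 rising and 2 falling genes of each pathway list. The members and lists were chosen with earlier results of these data known, so that no test here is independent support for them. Alternatives changed the pseudocount (0.1), the filter, the scaling (quantile normalization), the trend, the replicate block, single libraries, the test (voom on recovered reads) and the distance limit of peaks (10 kb).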

Additional observations from a re-analysis of the deposited data

How the results depend on the processing

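Counts of called member genes stayed within 1.5 times of those reported in most alternatives, and single calls lost are given beside the genes. Leaving out 1 library moved the count of called genes between 7 and 8 at 60 h against 40 h, 2 and 4 at 72 h against 60 h (2 without replicate 1 of 72 h), and 6 and 7 at 72 h against 40 h. Without both 60 h libraries rich in photoreceptor markers the middle count was 2. For peaks the ranges were 23 to 41, 3 to 18 and 32 to 49, with 23 without replicate 2 of 40 h, 18 without replicate 2 of 60 h, and 3 and 5 without replicate 2 of 72 h and of 40 h. Under the same settings the counts over all genes and all peaks moved too, so nothing about the members is read from these ranges. Peaks within 10 kb of a start by the deposited distances gave 7, 0 and 13 calls, since fewer peaks were counted. Peaks of Con close to its second start peak but counted from the first start were left out of these. Of 36 calls at 60 h against 40 h, 11 higher and 9 lower ones passed under every alternative, and of 45 at 72 h against 40 h, 10 higher and 19 lower ones did.

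With the replicate block the counts were 8, 3 and 7 for genes and 36, 11 and 45 for peaks; only the call of kek1 at 72 h against 60 h was lost among genes (adjusted p = 0.056). Libraries with the same number did not deviate together in every pair of ages (correlations of -0.09 to 0.22 for RNA and -0.47, -0.11 and 0.55 for ATAC), and the labels do not say that a number marks a batch, so whether some of them share one is not known. The 40 h numbers crossed, a choice made after seeing the data, gave 19 peaks at 72 h against 60 h.

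Changes that had not passed changed sign as follows. At 72 h against 60 h kek4 was 0.018 under quantile normalization and 0.015 without both photoreceptor-rich libraries, and -0.21 to 0.16 without 1 library, and kek5 was -0.0051 to 0.323 without 1 library. The start peaks at 60 h against 40 h were 0.23 for trn and 0.28 for caps under quantile normalization, and without 1 library -0.45 to 0.10 for trn, -0.323 to 0.067 for caps, -0.11 to 0.44 for Con and -0.15 to 0.25 for kek1. At 72 h against 60 h the far peak of caps was -0.052 under quantile normalization and -0.16 to 0.23 without 1 library, and the start peak of kek4 -0.537 to 0.018. At 72 h against 40 h quantile normalization gave 0.15 for the start peak of Con and 0.083 for caps, both called in the other direction as deposited, and 0.27 for kek1 and 0.054 for kek6. The cause was not tested. Scaling RNA to all recovered reads, also added after seeing the data, shifted the median of all genes by -0.21, -0.16 and -0.37 in the 3 comparisons; under it kek4 no longer passed at 72 h against 40 h (0.37, adjusted p = 0.10, that shift included), and kek6 passed as lower (-0.64, adjusted p = 0.0043).

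With 2 libraries in most groups, a change that missed the threshold does not show that ages were alike. Low genes (kek3, kek5) rest on few reads.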
